A study of Mus musculus with 12 samples.

Results

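The comparison set 3 subcutaneous mouse pancreatic ductal adenocarcinoma (PDAC) tumours treated with an agonistic CD40 antibody alone against 3 untreated PDAC tumours, in 6 of the 12 bulk RNA-seq libraries of the study. The 6 libraries were chosen by treatment label, and all genes of the deposited table that holds both groups were examined. The treated mice received the antibody intraperitoneally, 2 times a week, and for the untreated mice no injection is described. The other 6 libraries, from tumours given an antibody against IL-1R1 alone or with the CD40 agonist, entered only the fit of all 12 libraries. The sources used here do not give the mouse strain, the tumour line, the antibody clone, the dose or the time of sampling. Nor do they say whether each library is from a mouse of its own, so a p-value reflects only how these libraries vary, and that variation may be technical.

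CD40 is a receptor of the tumour necrosis factor receptor family on dendritic cells, macrophages and B cells. It is normally engaged by CD40 ligand on helper T cells, recruits TRAF adaptors and starts the canonical and noncanonical NF-kB pathways. Agonistic antibodies replace the ligand and are known to license dendritic cells to prime T cells and to activate tumour macrophages. PDAC is a stroma-rich tumour that usually holds few T cells. A bulk library mixes tumour cells, fibroblasts, vessels and infiltrating leukocytes, so more cells of a type and more RNA per cell cannot be told apart in any result given here.

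The CD40 agonist libraries held 47.9, 37 and 43.9 M reads in genes, and the untreated libraries held 53.3, 35.4 and 37.6 M, in the order of replicates 1, 2 and 3, which is kept throughout. Levels are in CPM, which scales reads to a common library total adjusted by the TMM factor. CPM is not corrected for gene length, so levels are compared between libraries and not between genes. The epithelial keratin gene Krt8 was measured at 1312, 1318 and 1761 CPM in CD40 agonist tumours, against 1374, 1840 and 1260 CPM in untreated tumours. The fibroblast collagen gene Col1a1 stood at 2846, 4370 and 3508 CPM in CD40 agonist tumours and at 3698, 3232 and 3664 CPM in untreated tumours. Krt8 and Col1a1 were thus detected in every library, which does not measure the share of epithelium or stroma. The acinar gene Cpa1 did not exceed 0.6 CPM anywhere.

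The library labelled CD40 agonist 3 lay close to the untreated libraries. Its log2 levels correlated at 0.99 with untreated 2, the highest value of all pairs of libraries over the 14305 genes that averaged 1 CPM or more, and at 0.963 and 0.949 with CD40 agonist 1 and 2. CD40 agonist 1 and 2 were no closer to each other, at 0.96, and correlated with untreated libraries at 0.954 to 0.968. The untreated libraries correlated with each other at 0.984 to 0.988. CD40 agonist 1 held 304 genes at least 2-fold above the highest untreated library and CD40 agonist 2 held 527, while CD40 agonist 3 held 16. In the other direction, 356, 85 and 136 genes of CD40 agonist 1, 2 and 3 were at least 2-fold below the lowest untreated library, so CD40 agonist 3 had more such genes than CD40 agonist 2. Each untreated library set against the other 2 had 109, 47 and 112 genes at least 2-fold above them and 72, 143 and 195 below. A range of 2 libraries is easier to leave than one of 3. Of the genes so raised in CD40 agonist 1, 183 were raised in CD40 agonist 2 too, which is 60.2% of the first list and 34.7% of the second. Only Ampd1 and Cap2 were that high in all 3. Ampd1 was at 0.351, 8.29 and 0.418 CPM with CD40 agonist and at 0, 0.0281 and 0.0274 CPM untreated. Cap2 was at 1.075, 12.2 and 0.395 CPM against 0.151, 0.112 and 0 CPM untreated. Both were low outside CD40 agonist 2 and averaged 1 CPM or more only through it. CD40 agonist 2 also carried skeletal muscle transcripts, whose 22 listed genes summed to 3270 CPM in it, against 166 and 108 CPM in CD40 agonist 1 and 3 and 97 to 111 CPM in untreated libraries. Genes are therefore given per library, and a list median is followed by its lowest and highest value with 1 library left out where these differ from it by over 1.5 times.

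**Figure D1:**
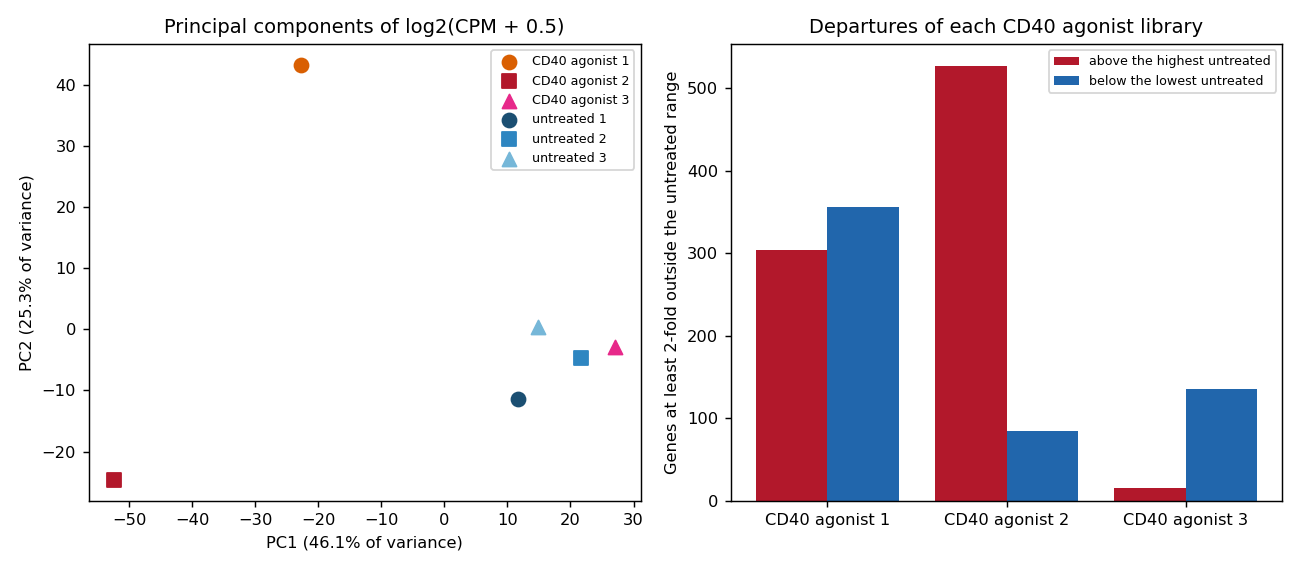
Left, principal components of log2(CPM + 0.5), with PC1 and PC2 holding 46.1% and 25.3% of the variance and 1 point per library. Right, for each CD40 agonist library, the number of genes at least 2-fold above the highest or below the lowest untreated library. CD40 agonist 3 lies beside the untreated libraries at the right of PC1 and has 16 genes above their range, against 304 and 527 in CD40 agonist 1 and 2, and 136 below it, against 356 and 85.

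No gene passed the test over all genes. edgeR's quasi-likelihood test called 0 of 17857 tested genes higher (0%) and 0 lower (0%) at an adjusted p under 0.05, and its lowest adjusted p was 0.862. At an unadjusted p under 0.05 it listed 461 genes higher (2.58%) and 450 lower (2.52%), 911 in all (5.1%), near the 893 that this threshold gives for that number of tests. With limma voom 979 genes had an unadjusted p under 0.05 and 0 were called. DESeq2 called 16 of 17124 genes (0.0934%) at an adjusted p under 0.05, 12 higher (0.0701%) and 4 lower (0.0234%). It gave 1372 genes an unadjusted p under 0.05. These were counted over every gene of the 29014 that had a p-value, not over the 17124 with an adjusted p. The authors' deposited table called the same 16 genes among its 29014 (0.0551%, with 0.0414% higher and 0.0138% lower). Without CD40 agonist 3, edgeR called 107 genes higher and 6 lower (0.575% and 0.0322% of 18616), and without any one of the other 5 libraries it called 0. The spread within groups was larger with treatment, with a median SD of 0.238 in log2 over libraries treated with CD40 agonist and 0.159 over untreated libraries.

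Gene lists are described by their counts and median log2 fold change beside those of all tested genes, without a test. A gene is said to lie apart when all 3 CD40 agonist libraries were above, or all 3 below, all 3 untreated libraries. Of all tested genes 832 lay apart and higher (4.66%) and 1165 lay apart and lower (6.52%). The median log2 fold change over all tested genes was -0.01, with CD40 agonist over untreated as the direction throughout.

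The genes reported here fall into a few regulatory classes whose control sequences are known as background. Many genes of the G2 and M phases carry CCAAT boxes bound by NF-Y and a CHR element bound by the MuvB complexes. Many interferon genes carry an ISRE, the interferon-stimulated response element, and CD40 signalling acts through NF-kB sites. Below are the 250 bases upstream of the annotated start of 5 genes on which the results turn, from RefSeq on GRCm38.p6, printed 5′ to 3′ on the gene's strand. They show what the 3 classes look like. Capitals mark, on either strand, CCAAT and the CHR TTTGAA in Top2a (chr11:99024190-99024439, minus strand) and Bub1 (chr2:127831860-127832109, minus strand). They mark an NF-kB motif, GGG and TTCC with any 3 bases between them, in Tnfaip3 (chr10:19015411-19015660, minus strand, 1 of 2 table entries), the ISRE core, GAAA repeated after any 2 bases, in Calhm6 (chr10:34127973-34128222, minus strand) and both of these in Cxcl10 (chr5:92348890-92349139, minus strand). The capitalised motifs do not overlap each other.
Top2a: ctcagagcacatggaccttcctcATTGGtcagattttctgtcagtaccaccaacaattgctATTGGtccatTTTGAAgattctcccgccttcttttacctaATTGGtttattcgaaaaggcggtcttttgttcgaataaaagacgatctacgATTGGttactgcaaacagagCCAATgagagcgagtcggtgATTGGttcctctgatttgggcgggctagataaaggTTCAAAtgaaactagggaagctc
Bub1: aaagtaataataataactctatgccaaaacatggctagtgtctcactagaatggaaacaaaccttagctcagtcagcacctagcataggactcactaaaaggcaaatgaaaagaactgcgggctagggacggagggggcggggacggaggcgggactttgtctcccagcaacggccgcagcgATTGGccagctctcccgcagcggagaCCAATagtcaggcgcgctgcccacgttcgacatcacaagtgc
Tnfaip3: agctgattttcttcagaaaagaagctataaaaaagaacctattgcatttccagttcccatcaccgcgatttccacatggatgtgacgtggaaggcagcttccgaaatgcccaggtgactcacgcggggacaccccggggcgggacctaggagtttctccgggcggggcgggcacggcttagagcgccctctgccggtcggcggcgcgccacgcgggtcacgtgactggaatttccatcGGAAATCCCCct
Calhm6: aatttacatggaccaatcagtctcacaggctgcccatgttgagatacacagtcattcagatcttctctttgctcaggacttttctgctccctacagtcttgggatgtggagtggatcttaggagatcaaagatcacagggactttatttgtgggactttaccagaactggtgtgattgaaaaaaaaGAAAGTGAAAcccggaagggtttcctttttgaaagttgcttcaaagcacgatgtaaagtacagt
Cxcl10: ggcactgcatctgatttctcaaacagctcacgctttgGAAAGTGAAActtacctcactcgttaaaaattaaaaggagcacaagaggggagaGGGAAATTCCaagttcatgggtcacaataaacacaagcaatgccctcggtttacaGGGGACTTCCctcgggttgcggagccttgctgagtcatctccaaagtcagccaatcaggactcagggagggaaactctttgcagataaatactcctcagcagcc

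Top2a held 6 CCAAT boxes and 2 CHR matches, at 227 to 58 and at 179 and 23 bases before the start, and Bub1 held 2 CCAAT boxes. Of 24 tested cell cycle genes with an entry, 21 held CCAAT (87.5%) and 8 held the CHR (33.3%), against 33.8% and 16% of all 32851 RefSeq upstream windows. The CHR was not particular to this list, as some others held it as often, such as interferon gamma (8 of 22) and endothelial genes (4 of 11). CCAAT was also common in some other lists, such as MHC class I presentation (15 of 20). The NF-kB motif was in 10 of 20 windows of genes on the CD40 and NF-kB list (50%), against 4.65% of all windows. Some other lists held it too, such as skin keratinocyte genes (3 of 5) and interleukin-1 mediators (6 of 21). Others did not, such as T cell genes (0 of 13). The ISRE core was in 13 of 26 type I interferon genes (50%) and 12 of 22 interferon gamma genes (54.5%), against 2.98% of all windows. A match is a description of letters and no evidence of binding in these tumours.

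Of the 37 lists, that of cell cycle genes was the one whose level was higher in every CD40 agonist library, CD40 agonist 3 included, than in every untreated library. Of 30 tested genes, 29 had a positive fold change, with a median log2 fold change of 0.28, and 19 lay apart and higher (63.3%, against 4.66% of all tested genes). None lay apart and lower, and 13 had an unadjusted edgeR p under 0.05, all higher. The list level, which averages log2(CPM + 0.5) over its genes, was 5.95, 6.00 and 5.88 in CD40 agonist tumours and 5.50, 5.72 and 5.71 in untreated tumours. Leaving out any 1 library left 19 to 26 of the 30 genes apart and higher, against 6.98 to 12.7% of all tested genes.

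Top2a (ENSMUSG00000020914, chromosome 11, 98883769 to 98915015, minus strand, mm39), the type II topoisomerase of replicating and dividing cells, was at 151, 159 and 143 CPM with CD40 agonist and at 81.8, 112 and 96.9 CPM untreated. The groups did not overlap, and the log2 fold change was 0.64 (SE 0.13, DESeq2 adjusted p 0.047). It was the only cell cycle gene that DESeq2 called. Cenpe, a kinesin of the kinetochore, stood at 38.6, 42.7 and 35.3 CPM with CD40 agonist against 21.8, 29.1 and 25 CPM untreated (log2 fold change 0.62, SE 0.15). The spindle checkpoint kinase gene Bub1 stood at 26.8, 21.2 and 19.4 CPM against 12.5, 14.5 and 16.2 CPM untreated (0.64, SE 0.18). Both lay apart and neither passed DESeq2's test. The mitotic kinase gene Aurka was at 30.6, 35 and 32.2 CPM with CD40 agonist and at 24.5, 25.6 and 21.6 CPM untreated (0.45, SE 0.14). The proliferation marker Mki67 was at 116, 132 and 133 CPM against 74.1, 110 and 112 CPM untreated. Untreated 1 lay well below the other two untreated libraries for this gene.

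The members that overlapped included the mitotic genes Plk1, Aurkb, Ube2c and Foxm1, for which CD40 agonist 3 lay within the untreated range or below it. Rrm2, a ribonucleotide reductase gene, was at 71, 90.5 and 91.9 CPM with CD40 agonist and at 76.5, 91.9 and 91.1 CPM untreated. The chromatin protein gene Hmgb2, which is abundant in dividing cells and was not on the list, stood at 139, 135 and 157 CPM with CD40 agonist and at 101, 108 and 102 CPM untreated (log2 fold change 0.47, SE 0.11). Untreated 1 was the lowest of the untreated libraries for 25 of the 30 listed genes, and without it 19 genes still lay apart and higher, against 6.98% of all genes.

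**Figure D2:**
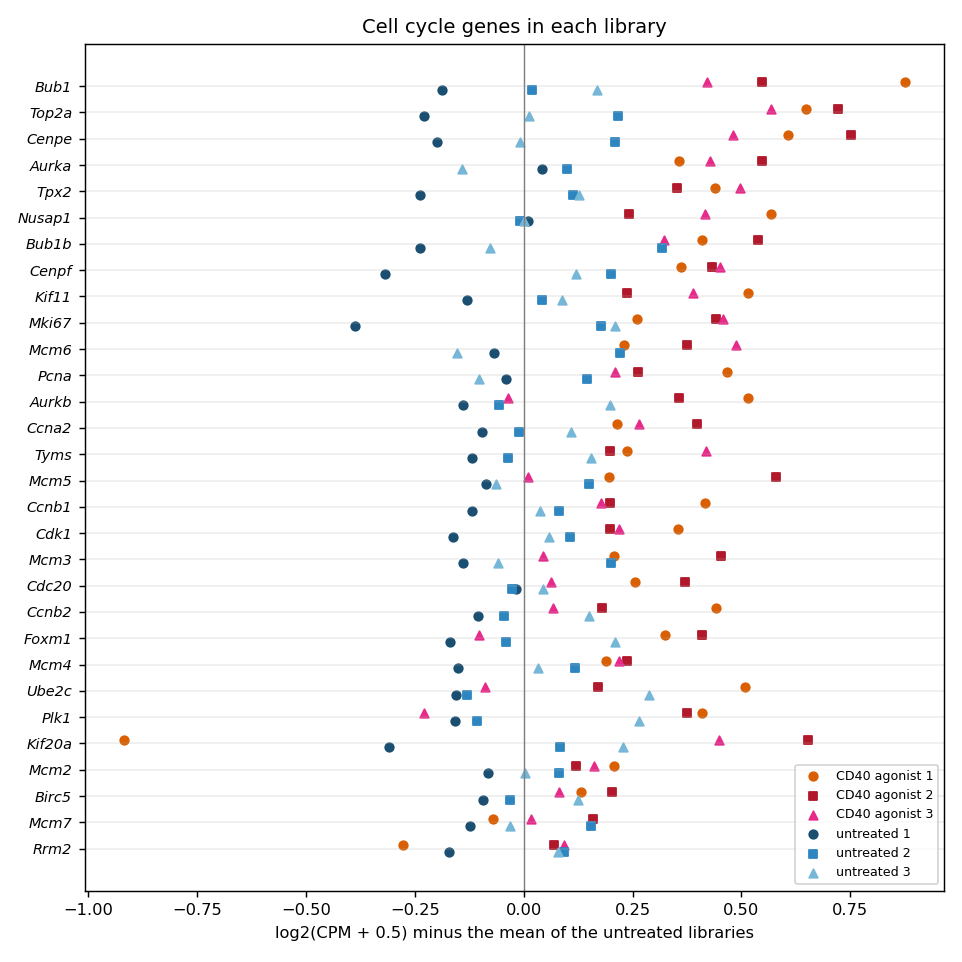
The 30 tested cell cycle genes, ordered by log2 fold change, with the log2(CPM + 0.5) of each library minus the mean of the untreated libraries on the horizontal axis and 1 point per library. CD40 agonist points lie to the right of all untreated points for 19 genes, among them Top2a at 0.64, while Kif20a and Rrm2 are low in CD40 agonist 1.

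Interferon gamma response genes had a higher mean in all 32 tested cases, with a median log2 fold change of 1.70, yet none lay apart. All 32 were above every untreated library in CD40 agonist 2, and 31 were in CD40 agonist 1. In CD40 agonist 3 none were above, 12 were within and 20 were below the untreated range, where 29.6% of all tested genes were below it. The list level was 5.71, 6.21 and 3.18 in CD40 agonist tumours and 4.23, 3.49 and 3.38 in untreated tumours. Type I interferon genes were similar, with 37 of 37 higher and a median of 0.96, and levels of 4.67, 5.20 and 3.07 in CD40 agonist against 3.88, 3.64 and 3.52 in untreated tumours. Their median was 0.40 without CD40 agonist 2 and 1.42 without CD40 agonist 3.

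Calhm6 (ENSMUSG00000046031, chromosome 10, 34002063 to 34003980, minus strand, mm39), a calcium homeostasis modulator channel gene of activated macrophages, was the only gene of the interferon gamma list that DESeq2 called. It was at 5.66, 9.98 and 0.557 CPM with CD40 agonist and at 0.662, 0.674 and 0.521 CPM untreated. CD40 agonist 3 lay within the untreated range, and the log2 fold change was 3.12 (SE 0.91, DESeq2 adjusted p 0.00825). Acod1, the enzyme that makes the antimicrobial metabolite itaconate, was at 23.3, 65 and 1.74 CPM against 2.08, 0.899 and 0.823 CPM untreated (4.53, SE 1.47). The guanylate-binding protein gene Gbp3 was at 128, 158 and 22 CPM against 35.3, 20.7 and 19.4 CPM untreated (2.03, SE 0.81). Neither of these passed DESeq2's test, and CD40 agonist 3 overlapped the untreated libraries in both. Gbp genes share sequence, so their reads are uncertain.

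Of the 37 type I interferon genes 2 lay apart and higher, near the 4.66% of all tested genes, and none of the interferon gamma genes did. Ifi204, a DNA sensor of the Ifi200 family, was at 50, 63.5 and 40.7 CPM with CD40 agonist against 34.9, 32 and 32.4 CPM untreated (log2 fold change 0.63, SE 0.17). Eif2ak2, the kinase PKR that halts translation on double-stranded RNA, was at 18.7, 29.6 and 16.9 CPM against 14.5, 15.2 and 14.3 CPM untreated. Outside the list, 2 interferon-inducible genes were among those with the lowest p whose groups did not overlap. Ifi211, another Ifi200 gene, was at 33.1, 41.7 and 30.6 CPM against 19.2, 24.6 and 20 CPM untreated (0.73, SE 0.17), and Samd9l, an antiviral factor, at 97.4, 76.8 and 87.6 CPM against 55.8, 64.9 and 54.9 CPM (0.58, SE 0.13). None passed edgeR's or DESeq2's test. The Ifi200 genes are close paralogs that may share reads. Mx1, an antiviral GTPase gene, was high in CD40 agonist 1 and 2 only, at 4.59, 8.11 and 1.72 CPM against 1.84, 1.91 and 1.62 CPM untreated.

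Of 23 genes of MHC class I presentation, 22 had a higher mean with CD40 agonist, with a median of 0.66, which was 0.29 without CD40 agonist 2 and 1.03 without CD40 agonist 3. CD40 agonist 3 was below all untreated libraries for 18 of them. Of the 23, 1 lay apart and higher, against 4.66% of all tested genes. Psme2 (chromosome 14, 55824898 to 55828570, minus strand, mm39), a subunit of the interferon-inducible proteasome activator PA28, was the only member that lay apart and the only one DESeq2 called. It stood at 125, 146 and 72.5 CPM with CD40 agonist and at 63.1, 61 and 57.9 CPM untreated (log2 fold change 0.92, SE 0.23, DESeq2 adjusted p 0.0308). Its partner Psme1 was at 164, 160 and 101 CPM against 118, 110 and 98.2 CPM untreated, with CD40 agonist 3 inside the untreated range. The peptide transporter gene Tap2 was at 47.2, 62.7 and 13 CPM against 28.1, 15.1 and 14.1 CPM untreated. MHC class II genes had a median of 0.09 (-0.48 without CD40 agonist 2 and 0.38 without CD40 agonist 3), with 6 of 11 higher and none apart, and CD40 agonist 3 was below all untreated libraries for 10 of them.

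Transcripts of the CD40 pathway were higher in part. Cd40 (ENSMUSG00000017652, chromosome 2, 164897547 to 164914868, plus strand, mm39) was at 14.8, 33.5 and 6.43 CPM with CD40 agonist and at 5.2, 4.07 and 4.69 CPM untreated. Every treated library lay above every untreated one, CD40 agonist 3 by little, and the log2 fold change of 1.97 (SE 0.56) passed neither edgeR's nor DESeq2's test (DESeq2 adjusted p 0.269). Cd40lg, the ligand gene, had no reads in CD40 agonist libraries and 0.0757, 0 and 0 CPM in untreated libraries, and was not tested. Of 23 tested genes of CD40 and noncanonical NF-kB signalling, 20 had a higher mean, with a median of 0.24. Of the 23, 4 lay apart and higher, against 4.66% of all tested genes. The median was 0.45 without CD40 agonist 3 and 0.16 without CD40 agonist 2.

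The members that lay apart were Cd40 and 3 feedback and survival genes of NF-kB. Tnfaip3, which encodes the NF-kB inhibitor A20, was at 43.2, 67 and 38.9 CPM with CD40 agonist and at 30.6, 31.3 and 29.2 CPM untreated (log2 fold change 0.71, SE 0.20). Birc3, an inhibitor of apoptosis that binds TRAF2, was at 18.8, 34.3 and 15.2 CPM against 12.4, 11.6 and 12.9 CPM untreated (0.88, SE 0.28). Its homologue Birc2 was at 41.3, 38.9 and 31.3 CPM against 25.7, 29.5 and 27.5 CPM untreated (0.43, SE 0.15). None passed a test over all genes. Genes of the signalling core overlapped between groups. Traf2, an adaptor, was at 51.1, 51.5 and 41.6 CPM with CD40 agonist against 46.4, 51.8 and 45.3 CPM untreated, and Map3k14, which encodes the kinase NIK, was at 25.4, 34.9 and 32.3 CPM against 29.5, 35 and 31.7 CPM.

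Dendritic cell genes did not move in 1 direction. Of 19 maturation genes 12 were higher, with a median of 0.15 (0.08 without CD40 agonist 2 and 0.31 without CD40 agonist 3). Of the 19, 1 lay apart and higher and 1 apart and lower, against 4.66% and 6.52% of all tested genes. Tnfsf4, the costimulator OX40 ligand, was at 0.62, 1.59 and 1.44 CPM with CD40 agonist and at 0.132, 0.421 and 0.466 CPM untreated (log2 fold change 1.85, SE 0.69). Ccl17, a chemokine gene of dendritic cells, was at 1.8, 2.19 and 2.02 CPM against 3.03, 4.24 and 3.32 CPM untreated (-0.82, SE 0.32). Cd80, a ligand of CD28, was at 6.47, 8.84 and 3.48 CPM against 3.8, 3.15 and 3.24 CPM untreated, with CD40 agonist 3 inside the untreated range. Of 14 genes of dendritic cell identity 9 were lower, with a median of -0.21 (-0.38 without CD40 agonist 2 and -0.04 without CD40 agonist 1). Of the 14, 2 lay apart and lower, against 6.52% of all tested genes. These were Xcr1, at 0, 0 and 0.302 CPM against 0.795, 0.421 and 0.494 CPM untreated, and Clec9a, at 0.372, 0.104 and 0.534 CPM against 0.662, 0.842 and 0.905 CPM, both markers of cross-presenting dendritic cells and both at low counts. Flt3, the defining marker, was at 0.248, 1.77 and 1.83 CPM against 1.65, 1.12 and 1.4 CPM untreated.

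Among genes of activated myeloid cells, several were higher in all 3 treated libraries. Clec5a (ENSMUSG00000029915, chromosome 6, 40551828 to 40562755, minus strand, mm39), a C-type lectin that signals through DAP12, was at 16.3, 17.2 and 5.71 CPM with CD40 agonist and at 4.31, 3.45 and 3.65 CPM untreated (log2 fold change 1.78, SE 0.39, DESeq2 adjusted p 0.00382). Card9 (ENSMUSG00000026928, chromosome 2, 26242188 to 26250930, minus strand, mm39), the adaptor that couples such lectins to NF-kB, was at 6.99, 7.51 and 3.62 CPM against 1.89, 1.91 and 2 CPM untreated (1.64, SE 0.34, DESeq2 adjusted p 0.0165). The groups of both genes lay well apart in CD40 agonist 1 and 2 and by a smaller step in CD40 agonist 3. Of 22 tested activating myeloid receptors, 21 were higher, with a median of 0.56 (0.38 without CD40 agonist 2 and 0.85 without CD40 agonist 3). Clec5a and 3 others, 4 of the 22, lay apart and higher, against 4.66% of all tested genes. The other three were Sirpb1b at 1.82, 1.75 and 0.882 CPM against 0.359, 0.393 and 0.274 CPM untreated, Sirpb1c and Treml4. Sirpb1b and Sirpb1c are close paralogs whose reads are uncertain.

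Interleukin-1 beta transcripts were higher in all 3 libraries. Il1b was at 26.5, 30.6 and 16.6 CPM with CD40 agonist and at 11.7, 12 and 13.2 CPM untreated (log2 fold change 1.00, SE 0.22, DESeq2 adjusted p 0.0316). Ptgs2, the prostaglandin synthase COX-2, was at 56, 49.5 and 32.9 CPM against 26.6, 27.3 and 25.8 CPM untreated (0.80, SE 0.19, DESeq2 adjusted p 0.0633). Nampt, the extracellular cytokine and NAD-synthesis enzyme, was at 142, 148 and 103 CPM against 91.2, 74.4 and 84.8 CPM untreated (0.65, SE 0.16). Il1a was at 7.44, 4.15 and 0.418 CPM against 0.322, 0.477 and 1.78 CPM untreated, and overlapped. Il1r1, the receptor gene, was at 79.7, 60.2 and 66.3 CPM against 65.9, 67.6 and 68.8 CPM untreated, and overlapped too. Of 29 mediators induced by interleukin-1 and NF-kB, 28 had a higher mean (median 1.14). Of the 29, 2 lay apart and higher, Il1b and Ptgs2, against 4.66% of all tested genes. The median was 0.55 without CD40 agonist 1 and 1.5 without untreated 3.

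Neutrophil transcripts were higher in CD40 agonist 1 and 2. All 11 tested genes had a higher mean, with a median of 1.64. The median was 0.83 without CD40 agonist 1 and 2.08 without CD40 agonist 3. Of the 11, 2 lay apart and higher, against 4.66% of all tested genes. The list level was 2.82, 2.50 and 1.00 in CD40 agonist tumours and 1.20, 0.94 and 1.36 in untreated tumours. S100a9, a subunit of the alarmin calprotectin, was at 2.56, 4.15 and 0.743 CPM with CD40 agonist against 0.454, 0.281 and 0.384 CPM untreated (log2 fold change 2.72, SE 0.64, DESeq2 adjusted p 0.0316). Its partner S100a8 was at 6.06, 6.75 and 0.696 CPM against 0.889, 0.365 and 0.603 CPM untreated (2.84, SE 0.79, DESeq2 adjusted p 0.0165), with CD40 agonist 3 inside the untreated range. Of the defining markers, Csf3r was at 8.56, 8.99 and 2.67 CPM against 6.19, 2.92 and 4.88 CPM untreated, above that range in CD40 agonist 1 and 2 and below it in CD40 agonist 3. Ly6g, below the filter, was at 0.0827, 0.365 and 0 CPM against 0, 0.168 and 0.219 CPM.

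Of 23 genes of monocytes and macrophages 18 were higher, with a median of 0.19 (-0.01 without CD40 agonist 2 and 0.41 without CD40 agonist 1). Of the 23, 2 lay apart and higher, against 4.66% of all tested genes. These were Ms4a6d, a membrane protein gene of macrophages, at 37, 56.6 and 26 CPM with CD40 agonist against 25.8, 21.2 and 24.5 CPM untreated (log2 fold change 0.74, SE 0.25), and the Fc receptor gene Fcgr3 at 51.2, 56.3 and 48.5 CPM against 48.1, 47.4 and 46 CPM. Csf1r, the receptor of macrophage colony-stimulating factor, was at 54.5, 127 and 67 CPM with CD40 agonist and at 79.8, 57.5 and 75.8 CPM untreated, and Adgre1, the F4/80 gene, at 7.63, 19.7 and 18.4 CPM against 19.4, 13.3 and 19 CPM. Both overlapped between groups. Inflammatory macrophage products had a median of 1.04 (0.64 without CD40 agonist 2 and 1.45 without CD40 agonist 3) with 16 of 18 higher. Of the 18, 2 lay apart and higher, Il1b and Ptgs2, given above, against 4.66% of all tested genes. The difference between these lists was not tested. Fpr2, a formyl peptide receptor, was at 17.3, 19.4 and 0.673 CPM against 1.55, 0.477 and 1.23 CPM untreated (log2 fold change 3.50, SE 1.28), high in CD40 agonist 1 and 2 and inside the untreated range in CD40 agonist 3.

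Genes of alternatively activated macrophages split by member. Mgl2, the lectin CD301b, was at 6.88, 4.82 and 9.89 CPM with CD40 agonist and at 16.3, 16 and 12.8 CPM untreated (log2 fold change -1.06, SE 0.27, DESeq2 adjusted p 0.0895). Retnla, which encodes the secreted protein RELM-alpha, was at 0, 0 and 0.0464 CPM against 2.55, 0.281 and 0.686 CPM untreated, and DESeq2 called it lower (adjusted p 0.0165) although its mean was under 1 CPM. Chil3, the chitinase-like protein Ym1, went the other way at 8.12, 11.3 and 0.604 CPM against 0.719, 0.14 and 0.274 CPM untreated (4.09, SE 1.17), with CD40 agonist 3 inside the untreated range. Over the list 12 of 18 genes were higher, with a median of 0.21 (0.05 without CD40 agonist 1 and 0.31 without untreated 3). Of the 18, 2 lay apart and lower, Mgl2 and Retnla, against 6.52% of all tested genes, and none lay apart and higher.

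Among the other genes that DESeq2 called are 2 enzymes, and Kcna2, a potassium channel gene with a mean under 1 CPM, was also called higher. Ctsk, a collagen-degrading cathepsin, was at 105, 153 and 59.5 CPM with CD40 agonist and at 46.3, 44.5 and 54.2 CPM untreated (log2 fold change 1.13, SE 0.32, DESeq2 adjusted p 0.0165). Ass1, the arginine-synthesis enzyme argininosuccinate synthase, was at 36.9, 53.1 and 17.9 CPM against 15.7, 12.5 and 15.6 CPM untreated (1.30, SE 0.36, DESeq2 adjusted p 0.0165). In both, CD40 agonist 3 lay above the highest untreated library by less than the range of the untreated libraries. Of 34 chemokine genes 27 were higher, with a median of 0.66 (0.53 without CD40 agonist 2 and 1.00 without CD40 agonist 3). Of the 34, 1 lay apart and higher, Ccl12, and 1 apart and lower, Ccl17, against 4.66% and 6.52% of all tested genes. The monocyte chemokine gene Ccl12 was at 19.4, 21.8 and 13.7 CPM against 11.8, 10 and 12.9 CPM untreated, and Cxcl16 was at 125, 131 and 65.2 CPM against 68, 59.1 and 58.9 CPM. Complement genes had a median of 0.66 with 13 of 18 higher, which was 0.06 without CD40 agonist 2 and 1.09 without CD40 agonist 3.

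**Figure D3:**
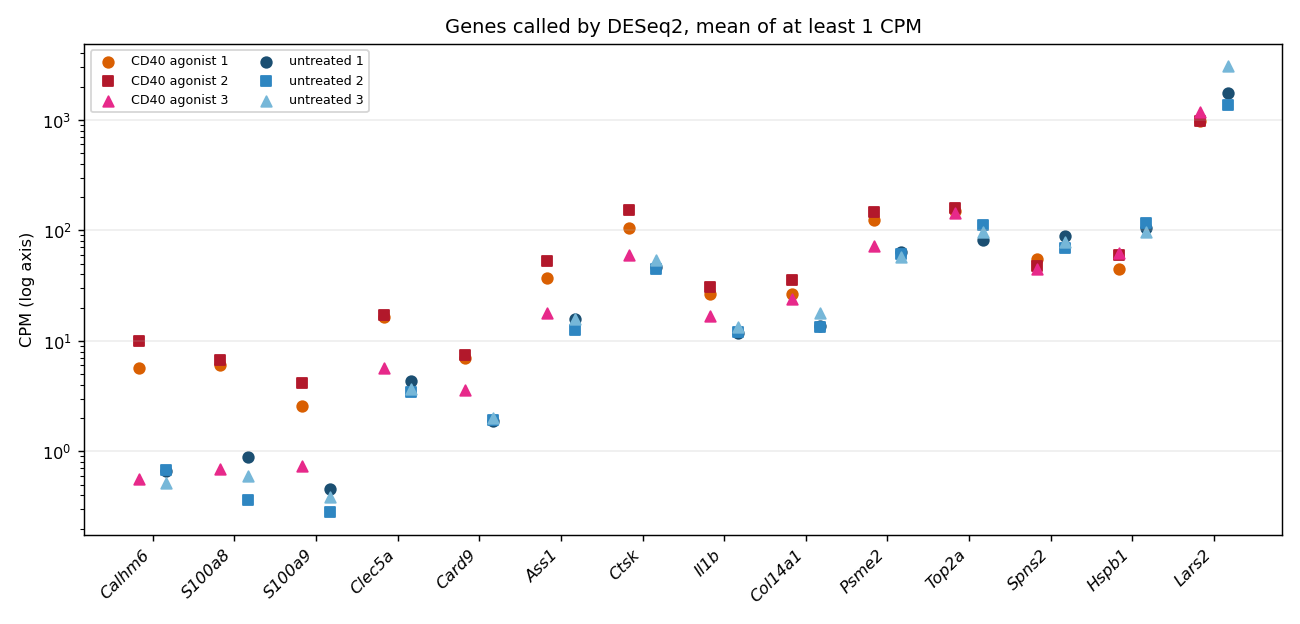
CPM on a log axis of the 14 genes that DESeq2 called at an adjusted p under 0.05 and that had a mean of at least 1 CPM, with CD40 agonist libraries left of untreated libraries for each gene and 1 point per library. Triangles mark replicate 3 of each group. CD40 agonist 3 lies between the untreated libraries and CD40 agonist 1 and 2 for genes such as Clec5a (5.71 CPM), and beside CD40 agonist 1 and 2 for Top2a, Spns2 and Hspb1.

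Lymphocyte genes gave no common direction. T cell genes had a median of 0.01 (-0.24 without CD40 agonist 2 and 0.59 without untreated 1), with 12 of 23 higher and none apart, and Cd3e was at 1.1, 1.2 and 0.0696 CPM with CD40 agonist and at 1.21, 1.04 and 0.905 CPM untreated. Genes of cytotoxic T and NK cells were higher in 20 of 21 cases with a median of 0.99 (0.42 without CD40 agonist 2 and 1.81 without untreated 1), and none lay apart. Gzmb, the protease granzyme B, was at 16, 27.8 and 5.32 CPM against 6.98, 5.28 and 4.09 CPM untreated (log2 fold change 1.58, SE 0.57), and the NK cell receptor gene Ncr1 was at 0.827, 2.29 and 0.0464 CPM against 0.132, 0.168 and 0.274 CPM. Havcr2, the checkpoint receptor TIM-3, was at 8.95, 8.73 and 4.83 CPM against 5.56, 3.15 and 3.76 CPM untreated. B and plasma cell genes had a median of -0.33, which was -1.66 without CD40 agonist 2 and 1.03 without untreated 3.

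**Figure D4:**
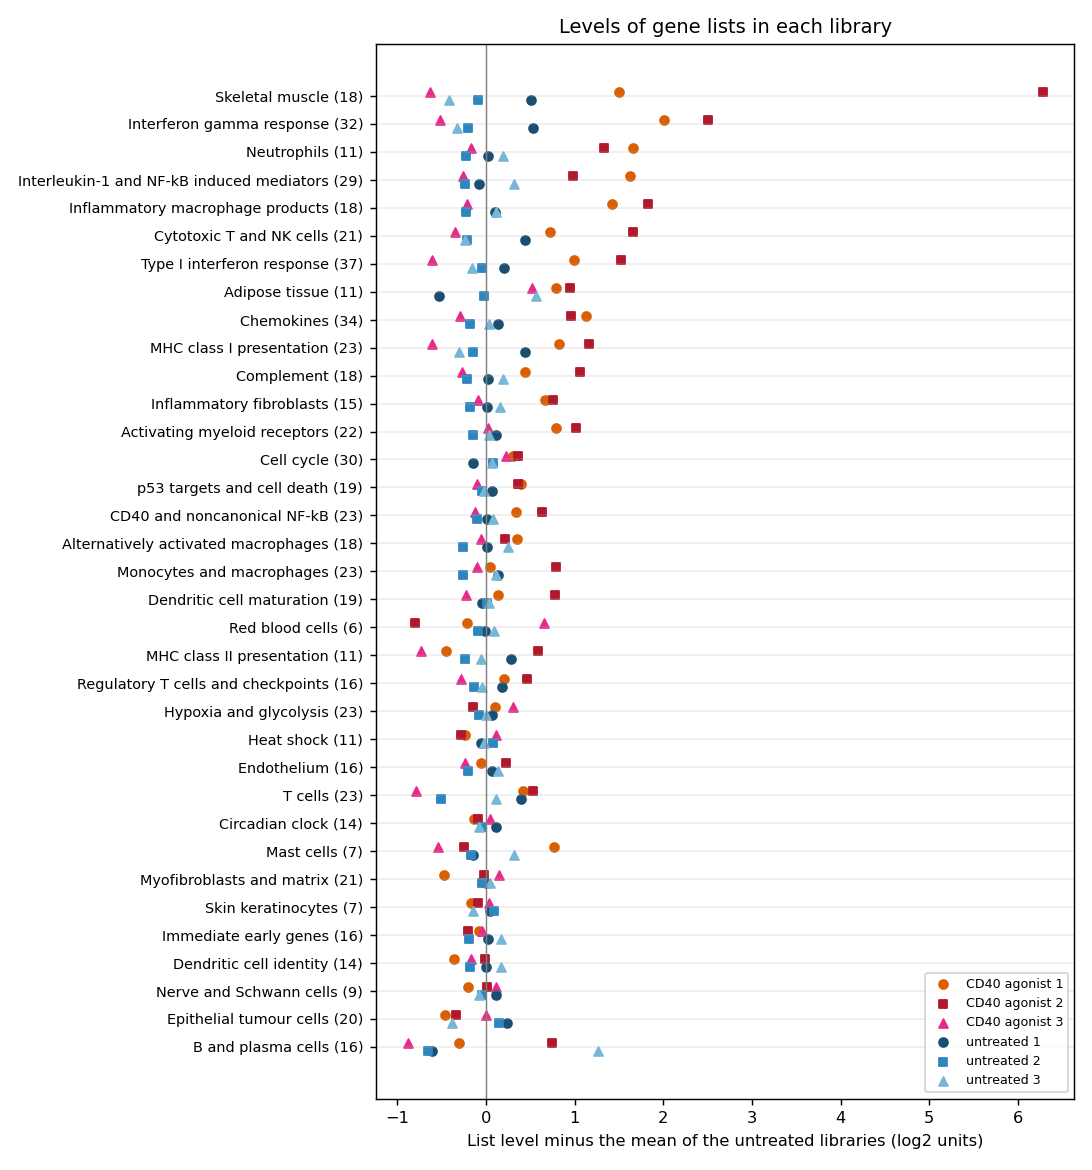
Levels of the 35 gene lists with at least 5 tested genes (number in parentheses), as log2(CPM + 0.5) averaged over tested genes minus the mean of the untreated libraries, with 1 point per library and CD40 agonist points above untreated points in each row. CD40 agonist 1 and 2 are high for interferon, neutrophil and inflammatory lists, CD40 agonist 3 is not, and cell cycle genes lie to the right in all 3 CD40 agonist libraries (5.95, 6.00 and 5.88 before subtraction).

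The gene with the lowest edgeR p of the comparison was lower with CD40 agonist. Hspb1 (ENSMUSG00000004951, chromosome 5, 135916773 to 135918417, plus strand, mm39), the small heat shock protein HSP27, was at 44.3, 59.8 and 62.9 CPM with CD40 agonist and at 105, 116 and 96.2 CPM untreated. All 3 treated libraries were below all untreated ones, CD40 agonist 3 too, and the log2 fold change was -0.92 (SE 0.15, DESeq2 adjusted p 0.00345). Without a filter on low counts edgeR called it as well, as its only gene, with an adjusted p of 0.00198. The heat shock list, which includes Hspb1, did not follow this gene, with 6 of 11 members higher. Its median was 0.05 (-0.03 without CD40 agonist 3 and 0.08 without untreated 2). Hspa1b, an inducible HSP70 gene with a near-identical copy, was at 63.2, 70.7 and 131 CPM against 137, 127 and 145 CPM untreated, low in CD40 agonist 1 and 2 only.

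Spns2, the transporter that exports sphingosine-1-phosphate, was at 54.8, 47.9 and 44.5 CPM with CD40 agonist and at 88.3, 68.7 and 79.1 CPM untreated (log2 fold change -0.68, SE 0.14, DESeq2 adjusted p 0.047). Atf5, a transcription factor of the mitochondrial stress response, was at 110, 86.2 and 96.8 CPM against 193, 134 and 142 CPM untreated (-0.68, SE 0.16). Gata6, a transcription factor of endoderm and of the classical PDAC state, was at 60.1, 57.6 and 63.4 CPM against 94.1, 79.9 and 79.4 CPM untreated (-0.48, SE 0.12). In all of these the treated libraries lay together below the untreated ones, and only Spns2 passed DESeq2's test. Lrrc32, which anchors latent TGF-beta at the cell surface, was at 26, 22.8 and 25.6 CPM against 37.4, 35.4 and 38.4 CPM untreated (-0.58, SE 0.13). Fam210b, a mitochondrial protein gene, was at 27.3, 26.1 and 28.4 CPM against 41.8, 42.1 and 37.6 CPM untreated (-0.57, SE 0.12). Further genes with low p and no overlap were Lrrn4cl (-0.98), Lrrc41 (-0.63), Onecut3 (-0.48) and the ribosomal protein pseudogenes Rpl21-ps15 (-0.63) and Rpl17-ps10 (-0.70), whose reads may come from their parent genes.

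Lars2, the mitochondrial leucyl-tRNA synthetase, was at 978, 981 and 1177 CPM with CD40 agonist and at 1762, 1357 and 3058 CPM untreated (log2 fold change -0.98, SE 0.28, DESeq2 adjusted p 0.0348). The ribosomal RNA gene Rn18s-rs5 was ordered in the same way over the untreated libraries, at 14249, 14023 and 14094 CPM against 24161, 16609 and 42224 CPM (-0.97, SE 0.30). The share of reads in it was 1.38 to 1.46% with CD40 agonist and 1.67 to 4.1% untreated, and its part in the Lars2 difference was not tested. The mitochondrial ribosomal RNA gene mt-Rnr2 was at 619, 401 and 790 CPM against 844, 1005 and 1057 CPM untreated.

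Epithelial tumour cell genes were lower in 18 of 20 cases, with a median of -0.24 (-0.46 without untreated 3 and -0.13 without untreated 2). Muc1, a membrane mucin, was at 31.2, 33 and 28.6 CPM with CD40 agonist and at 46.3, 37.4 and 35.1 CPM untreated (log2 fold change -0.36, SE 0.15), and its groups did not overlap. The list level of 4.71, 4.83 and 5.16 in CD40 agonist tumours overlapped that of 5.40, 5.31 and 4.78 in untreated tumours. Epcam was at 1.7, 4.15 and 4.18 CPM against 12.9, 4.13 and 2.55 CPM untreated, with untreated 1 far above the rest.

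In the stroma, genes of inflammatory fibroblasts were higher in 12 of 15 cases. Their median was 0.64 (0.32 without CD40 agonist 1 and 1.07 without CD40 agonist 3). Of the 15, 2 lay apart and higher and 1 apart and lower, against 4.66% and 6.52% of all tested genes. Genes of myofibroblasts and matrix were higher in 7 of 21 with a median of -0.09 (-0.17 without CD40 agonist 3 and 0.09 without CD40 agonist 1), and none lay apart. Col14a1, a fibril-associated collagen, was at 26.5, 35.5 and 24.2 CPM with CD40 agonist and at 13.7, 13.3 and 17.9 CPM untreated (log2 fold change 0.94, SE 0.20, DESeq2 adjusted p 0.0207). The fibroblast receptor gene Pdgfra was at 59.1, 38.7 and 38.4 CPM against 29.4, 32.3 and 32.6 CPM untreated (0.53, SE 0.18). Has1, a hyaluronan synthase, was the member apart and lower, at 3.29, 3.7 and 2.88 CPM against 4.84, 3.76 and 4.94 CPM untreated. Outside the list, the abundant proteoglycan gene Dcn was at 205, 144 and 142 CPM against 114, 118 and 102 CPM untreated (0.55, SE 0.16). Its groups did not overlap, and of these genes only Col14a1 passed DESeq2's test. Cxcl12 was at 35.4, 23.3 and 11.9 CPM against 12.1, 9.63 and 13.5 CPM untreated, with CD40 agonist 3 inside the untreated range. Pdgfrb, the pericyte and myofibroblast receptor, was at 189, 249 and 334 CPM against 336, 320 and 340 CPM untreated, low in CD40 agonist 1 and 2. Endothelial genes had a median of 0.02 (-0.18 without CD40 agonist 2 and 0.08 without untreated 3). Of 16 tested, 1 lay apart and lower, against 6.52% of all tested genes, and none apart and higher. It was Cdh5, VE-cadherin, at 27.9, 34.5 and 32.8 CPM against 46, 37.9 and 42.1 CPM untreated (-0.40, SE 0.14).

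Genes of hypoxia and glycolysis had a median of 0.07 (0.01 without CD40 agonist 3 and 0.20 without CD40 agonist 2), with 16 of 23 higher. Of the 23, 3 lay apart and higher, against 4.66% of all tested genes. Adm, the vasodilator peptide adrenomedullin, was at 60.3, 38 and 63.9 CPM with CD40 agonist and at 31.1, 27.5 and 33.4 CPM untreated (log2 fold change 0.82, SE 0.19, DESeq2 adjusted p 0.0519). Hk2, the first enzyme of glycolysis, was at 148, 177 and 178 CPM against 127, 123 and 124 CPM untreated (0.43, SE 0.11). Over the list, 18 of 23 genes of CD40 agonist 3 were above all untreated libraries, where 26.5% of all tested genes were. It was 9 genes in CD40 agonist 1 (32.5% of all tested genes) and 4 in CD40 agonist 2 (27.5%), where 14 were below all untreated libraries (31.9%). P53 and cell death genes had a median of 0.26. Of these 19 genes, 3 lay apart and higher and 2 apart and lower, against 4.66% and 6.52% of all tested genes. The necroptosis effector Mlkl was at 46.4, 56.8 and 33.6 CPM against 29.2, 32.9 and 30.1 CPM untreated (0.57, SE 0.18), and Mdm2, which encodes the ligase that degrades p53, was at 77.8, 65.1 and 66.1 CPM against 53.4, 61 and 57.1 CPM. Ripk3, the kinase upstream of Mlkl, was the third higher member. The lower ones were the p53 targets Phlda3, at 169, 141 and 182 CPM with CD40 agonist against 198, 196 and 207 CPM untreated, and Zmat3, at 28.8, 33.7 and 32.8 CPM against 37.4, 34.6 and 40.8 CPM.

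Tissue around the tumour was uneven between libraries. Skeletal muscle genes had a higher mean in 18 of 18 cases with a median of 5.60, or 1.16 without CD40 agonist 2, and none lay apart. Acta1, muscle actin, was at 27.3, 638 and 0.325 CPM with CD40 agonist and at 7.98, 1.49 and 0.329 CPM untreated. Adipose genes had a median of 0.95 (0.41 without untreated 1 and 1.61 without untreated 3). Of 11, 3 lay apart and higher and 1 apart and lower, against 4.66% and 6.52% of all tested genes. The lower one was Cidea, a lipid droplet gene, at 0.331, 0.469 and 0.58 CPM with CD40 agonist against 1.63, 0.758 and 0.658 CPM untreated. Among the higher was the fatty acid carrier Fabp4 at 27.3, 14.9 and 26.7 CPM against 9.67, 13.7 and 12.1 CPM untreated (log2 fold change 0.96, SE 0.25). The defining marker Adipoq was at 1.03, 1.72 and 2.37 CPM against 0.189, 0.505 and 4.42 CPM untreated. The part of muscle and fat tissue in the other differences was not tested. Skin, red cell, mast cell, nerve and acinar genes showed at most 1 member apart in either direction.

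Leaving out CD40 agonist 3 changed the calls most. Of the 107 genes that edgeR then called higher, CD40 agonist 3 was itself above all untreated libraries for 14, within their range for 39 and below it for 54. The called genes included 17 of 32 interferon gamma genes, 16 of 37 type I interferon genes, 6 of 18 inflammatory macrophage products and 4 of 22 activating myeloid receptors, beside 0.575% of all tested genes. No gene of the cell cycle list or of the skeletal muscle list was among them, although the muscle genes Sln and Myl4, which are not on that list, were. DESeq2 without CD40 agonist 3 called 3 of 30 cell cycle genes and 16 of 20 skeletal muscle genes, all higher. Over all 19705 genes of that fit it called 479 higher and 132 lower. Of the 16 genes DESeq2 had called over all 6 libraries, edgeR without CD40 agonist 3 called 10 and DESeq2 without it called 15.

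Examples from that fit were chosen after their values were seen. Cxcl10, a chemokine that attracts T cells, was at 127, 188 and 17.7 CPM with CD40 agonist and at 36.2, 22.8 and 25 CPM untreated, with a log2 fold change of 2.51 without CD40 agonist 3 (edgeR adjusted p 0.0117). Cd274, which encodes PD-L1, was at 83, 92.7 and 14.6 CPM against 22.5, 14.4 and 21.1 CPM untreated (2.20, edgeR adjusted p 0.0117). For Cxcl10, CD40 agonist 3 was below every untreated library. Of the 6 genes called lower, the elastin gene Eln was at 282, 315 and 1073 CPM against 915, 734 and 1037 CPM untreated (-1.57, edgeR adjusted p 0.0117), high in CD40 agonist 3. The others were Hspa1b, Pkp1, Hspa1a, Hspb1 and Rpl17-ps10, of which only Hspb1 and Rpl17-ps10 were below all untreated libraries in CD40 agonist 3 too.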

How the data were processed

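Bulk RNA-seq libraries of 3 CD40 agonist and 3 untreated tumours were compared, with groups taken from sample titles. Per the file headers, the authors deposited raw counts per gene, which are the values used here, beside normalized counts, FPKM and means (42 columns not used here), gene length, mm39 coordinates, and their log2 fold changes (log2), p-value and adjusted p-value. The submitters' processing notes name mm39 and DESeq2. The sources used here do not give the aligner, annotation or strand setting, so antisense and overlapping genes are uncertain. The authors' table has 29014 genes, each with 2 reads or more in total, and 78 lack a p-value. The 2 most alike libraries still differed by more than counting noise (median chi-square 5.49 per gene).

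Counts were tested with edgeR 4.0.16 (quasi-likelihood, robust, TMM, filterByExpr, R 4.3.3), with Benjamini-Hochberg adjustment over 17857 genes and calls at an adjusted p under 0.05. DESeq2 1.42.0 and limma 3.58.1 (voom), other scalings and filters, a fit of all 12 libraries, a replicate block and leaving out each library were alternatives. The biological coefficient of variation was 0.327 with 4 residual degrees of freedom. The code was tested on simulated data. List levels used a pseudocount of 0.5 CPM. Members and the 37 lists (686 genes, 661 in the table) were chosen with earlier results of these data known. Named genes were those with the lowest p and no overlap, those called by DESeq2 or in the deposited table, abundant genes with the largest difference and no overlap, up to 4 members per list by p, and fixed markers. Other members that are named without a fold change were chosen after their values were seen. Some genes that the rule names are not reported here. Upstream sequences come from RefSeq (GRCm38.p6).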

Additional observations from a re-analysis of the deposited data

How the results depend on the processing

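edgeR called 0 genes in either direction under every alternative scaling, under a filter at a mean of 1 CPM, without robust estimation, in the fit of all 12 libraries and with limma voom. DESeq2 called 12 genes higher and 4 lower, and edgeR without a filter on low counts called 1 lower. Leaving out 1 library moved the edgeR counts between 0 and 107 higher and between 0 and 6 lower, with every call from the fit without CD40 agonist 3. DESeq2 without each library, an alternative chosen after seeing the data, gave 12 higher and 5 lower without CD40 agonist 1, 7 and 4 without CD40 agonist 2, 479 and 132 without CD40 agonist 3, 10 and 0 without untreated 1, 10 and 4 without untreated 2, and 13 and 2 without untreated 3. Of the 16 genes, 4, 1 and 15 were called by DESeq2 without CD40 agonist 1, 2 and 3, and 0, 4 and 2 without untreated 1, 2 and 3. The cause was not tested. The replicate block left edgeR with 0 calls and 577 genes, instead of 911, at an unadjusted p under 0.05. Deviations of same-numbered libraries from their group means correlated at -0.101, -0.2 and -0.11, and those of differently numbered libraries at -0.155 to 0.272. With 3 libraries per group these values cannot show whether the numbers pair the samples. No gene whose fold change over all 6 libraries is given changed its direction under the alternatives other than DESeq2 without each library. Directions of genes were not checked in those DESeq2 fits. List medians changed sign in places, among them MHC class II (0.09, and -0.48 without CD40 agonist 2) and T cells (0.01, and -0.24 without CD40 agonist 2). Medians further from 0 did so too, as in B and plasma cells (-0.33, and 1.03 without untreated 3). Nerve and Schwann cells are another case (-0.22, and 0.06 without CD40 agonist 2). With 3 libraries per group and 4 residual degrees of freedom the spread between libraries limits what can be called, and genes under 1 CPM rest on few reads at a depth of 35.4 to 53.3 M.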
